A study of Mus musculus with 4 samples.

Results

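The Zic zinc finger genes Zic1, Zic2, Zic4 and Zic5 were followed across the cell classes of mouse medulloblastomas. They were taken by gene symbol, 4 of the 27998 genes counted, and no measured value chose them. All 4 animals were Atoh1-cre:SmoM2 littermates, whose cerebellar tumours of the Sonic hedgehog (SHH) type were taken at postnatal day 20. Atoh1-cre acts in granule neuron precursors and switches on SmoM2, a constitutively active Smoothened, so every animal carries the activated pathway and there was no animal without it. Tumour cells that excluded the dye 7-AAD were sorted and sequenced as 1 10x Chromium 3′ library per mouse, which counts unique molecular identifiers (UMIs) at transcript ends. The comparisons are therefore between classes of cells within the same mice: differentiating granule-like against progenitor-like cells, 3 classes outside the lineage against granule-lineage-like cells, and cell cycle ranges among progenitor-like cells.

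Zic proteins are transcription factors with C2H2 zinc fingers closely related to those of the Gli factors, which carry the SHH signal in the nucleus. The genes are active in the dorsal neural tube and in the cerebellum, where granule neuron precursors and granule neurons contain Zic1. Zic1 and Zic4 are needed for normal growth of the mouse cerebellum, Zic2 for the patterning of the forebrain, and Zic5 for neural crest and neural tube development. In mammals these genes sit in head-to-head pairs, Zic1 beside Zic4 and Zic2 beside Zic5.

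The submitters' processing notes name the genome build mm10, and the GENCODE annotation of that build places both pairs. Zic1 lies on the minus strand at chr9:91358058-91365810 and Zic4 on the plus strand at chr9:91362413-91389348. Their main transcripts start 3202 bases apart, but the first exon of the short transcript Zic4-208 overlaps Zic1 exons by 60 bases on the other strand. Whether the counting used strand is not given in the sources used here, so reads from those bases cannot be assigned with certainty. Zic5 lies on the minus strand at chr14:122456795-122465677 and Zic2 on the plus strand at chr14:122475435-122479852, with starts 9758 bases apart. RefSeq ends Zic2 476 bases farther downstream than GENCODE does, and for Zic5 it is GENCODE that ends 2365 bases farther downstream than RefSeq. The annotation release used for counting is not given in the sources used here, and whether it affects the Zic2 and Zic5 counts was not tested.

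The family likeness is strongest in the zinc fingers, and the most conserved 60 coding bases show how alike the members are. The block was read from the GENCODE transcripts and runs from coding base 730 to 789 in Zic1, 820 to 879 in Zic2, 436 to 495 in Zic4 and 1174 to 1233 in Zic5. Capitals mark bases that differ from Zic1.
Zic1: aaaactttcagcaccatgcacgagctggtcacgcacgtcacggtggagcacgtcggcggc
Zic2: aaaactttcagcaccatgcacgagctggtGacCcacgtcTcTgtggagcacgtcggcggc
Zic4: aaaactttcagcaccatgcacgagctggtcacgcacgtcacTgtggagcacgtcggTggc
Zic5: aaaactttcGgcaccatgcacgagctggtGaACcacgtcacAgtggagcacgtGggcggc
In this block 56 bases of Zic2, 58 of Zic4 and 54 of Zic5 equal Zic1. Over the whole coding sequences, aligned bases were 71.8% to 78.6% identical among the 6 pairs. A 3′ library does not read this block. Within the last 500 bases of each main transcript, no stretch of 30 bases occurred in another member's main transcript, so reads from those ends separate the members.

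The 5670 deposited barcodes held 5358 UMIs of Zic1, 1742 of Zic4, 1421 of Zic5 and 65 of Zic2. The libraries of mice 1 to 4 held 3415171, 2573901, 1679285 and 3801197 UMIs, and 20 barcode sequences occurred in more than 1 library. After filters 4101 cells were analysed. They fell into 529 differentiating granule-like, 178 astroglia-like, 142 oligodendrocyte-lineage-like, 39 myeloid-like, 5 choroid plexus or ependymal-like and 3208 progenitor-like cells. Progenitor-like is the class left when no other name applied, and 748 of its cells form a cluster with low levels of the nuclear RNA Malat1 and low depth. All 6 listed granule progenitor markers had UMIs in differentiating granule-like, astroglia-like and progenitor-like cells, and all but Hhip in oligodendrocyte-lineage-like and myeloid-like cells. Summed over those markers, the level ranged over mice from 12.7 to 15.2 UMIs per 10000 in differentiating, 7.28 to 9.31 in astroglia-like, 2.29 to 6.20 in oligodendrocyte-lineage-like, 0.369 to 3.33 in myeloid-like and 10.5 to 13.3 in progenitor-like cells. The Zic genes were kept out of the clustering, but genes that vary with them were not, so the tests set the classes side by side and do not bear on where their borders lie. Among genes not used for clustering, 17.4% were called between differentiating and progenitor-like cells. That share was 1.97% for astroglia-like, 19.1% for oligodendrocyte-lineage-like and 11.4% for myeloid-like against granule-lineage-like cells, and 16% for S-scored and 22.8% for G2M-scored against G1-scored cells.

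Zic1 made up most Zic UMIs in each class with over 100 of them: 68.6% in differentiating granule-like, 58.3% in astroglia-like and 60.5% in progenitor-like cells. Zic4 gave 16.3%, 22.4% and 21.3% in the same order, and Zic5 14.4%, 18.6% and 17.4%. These are shares of counted 3′ ends and are not corrected for how well each end is annotated.

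**Figure D1:**
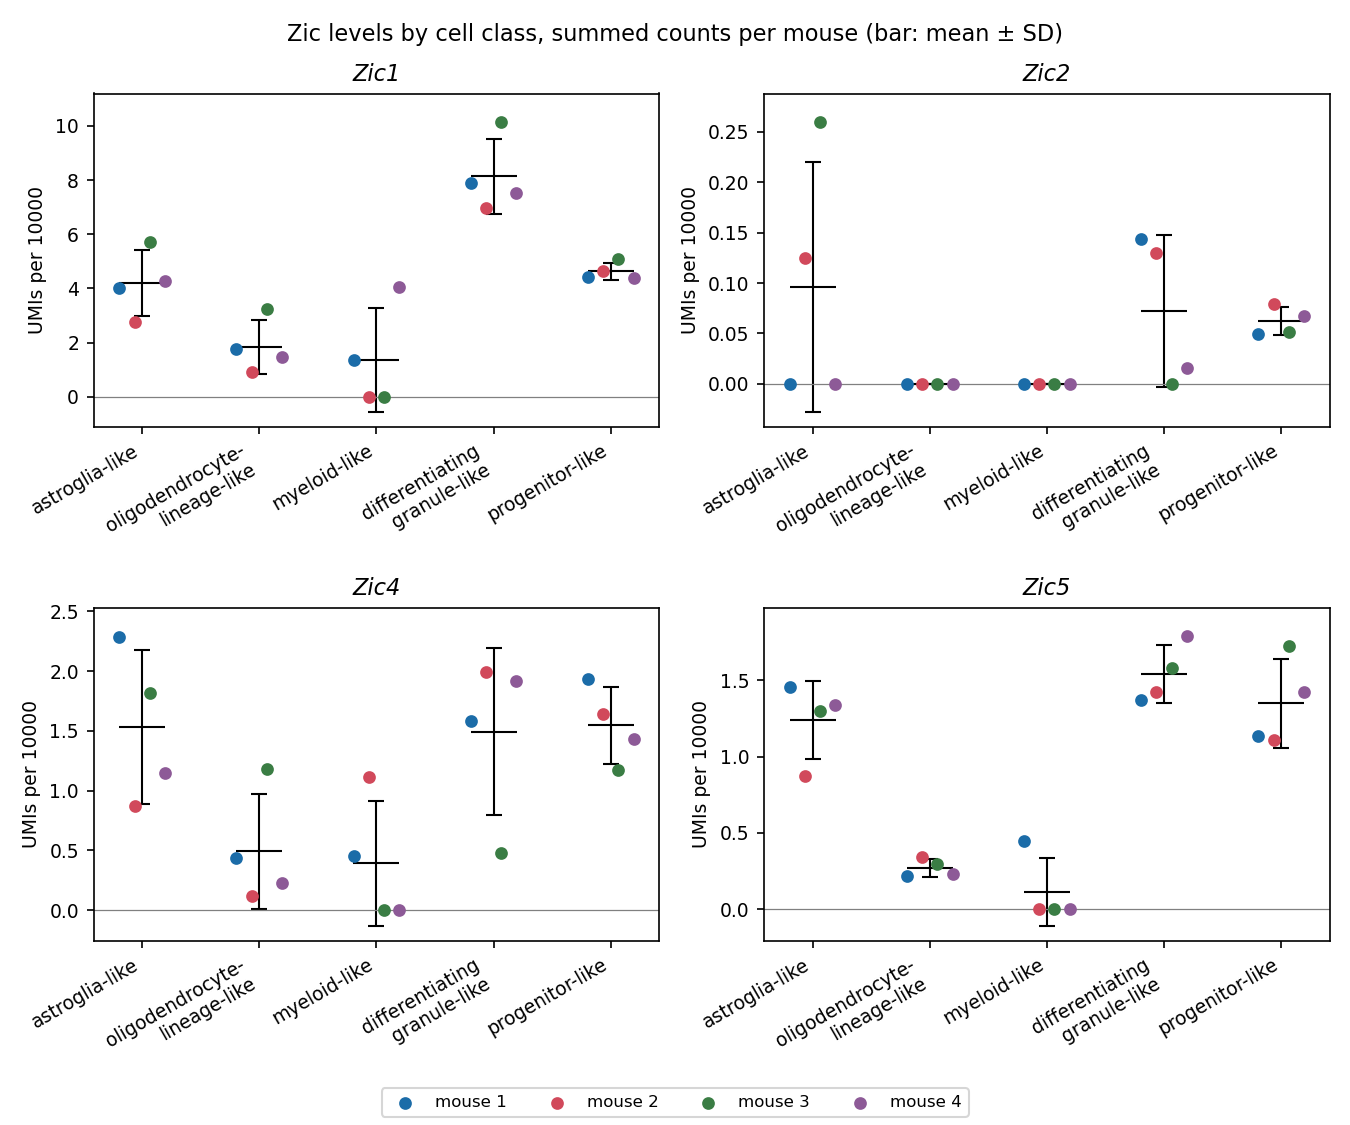
Zic UMIs per 10000 UMIs of the summed cells of each class (vertical axis), 1 panel per gene and 1 point per mouse; bars give the mean and SD over 4 mice. Differentiating granule-like cells had the highest Zic1 in each mouse, 6.98 to 10.1, against 4.37 to 5.07 in progenitor-like cells, while Zic2 lay between 0 and 0.260 throughout.

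Zic1 rose in differentiating granule-like cells. It stood at 7.89, 6.98, 10.1 and 7.53 UMIs per 10000 in differentiating cells of mice 1 to 4, against 4.40, 4.64, 5.07 and 4.37 in progenitor-like cells. The groups did not overlap, and the mean was 8.13 ± 1.38 against 4.62 ± 0.32 (SD, n = 4 mice). The log2 fold change was 0.74 ± 0.08, a fold of 1.67, higher in 4 of 4 mice, and edgeR's quasi-likelihood test gave an adjusted p of 5.6e-20. Standard errors of fold changes here are worked back from that test and are not a spread over mice. P-values come from a fit that shares its estimate of the spread across genes, so they do not rest on the spread of this gene over 4 littermates alone. In this comparison 19.1% of all 7710 genes tested were called and 9.21% were called higher.

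Zic4 and Zic5 did not pass the test between the same classes. Zic4 had 1.58, 1.99, 0.475 and 1.91 UMIs per 10000 in differentiating cells, against 1.94, 1.64, 1.17 and 1.43 in progenitor-like cells of mice 1 to 4. It was higher in 2 mice and lower in the other 2, and the lowest value came from 3 UMIs in the 39 differentiating cells of mouse 3. Its log2 fold change was 0.13 ± 0.12 (adjusted p = 0.51, edgeR), with an approximate 95% interval of -0.10 to 0.36, while its mean over mice was lower in differentiating cells, 1.49 ± 0.70 against 1.55 ± 0.32. Zic5 had 1.37, 1.42, 1.58 and 1.79 UMIs per 10000 in differentiating cells, against 1.14, 1.11, 1.73 and 1.43 in progenitor-like cells. It was higher in 3 of 4 mice, with a log2 fold change of 0.26 ± 0.13, an interval of 0.02 to 0.51 and an adjusted p of 0.13 (edgeR), and the ranges overlapped. Zic5 was called higher under 3 other clusterings, up to 0.52 ± 0.16 (adjusted p = 0.0087, edgeR) at the lower clustering resolution.

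The difference between members was itself compared per mouse. The log2 ratio of differentiating to progenitor-like cells was larger for Zic1 than for Zic4 in each of 4 mice, by 1.13, 0.31, 2.30 and 0.36. Against Zic5 it was larger by 0.57, 0.23, 1.12 and 0.46. Both contrasts gave p = 0.13 in a two-sided exact sign-flip permutation test, the smallest p that 4 mice allow.

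Single cells showed the Zic1 difference as well. With each cell thinned to 1000 UMIs, 54.7% ± 3.48 of differentiating and 35.1% ± 1.43 of progenitor-like cells held a Zic1 UMI (SD, n = 4 mice). The shares differed by 19.6 ± 3.44 percentage points, in the same direction in 4 of 4 mice (p = 0.13, exact sign-flip permutation test, the smallest possible). Thinning left out 60 differentiating and 496 progenitor-like cells as too shallow, and without it the shares were 77.8% ± 2.25 and 59.5% ± 1.91. Myeloid-like cells, taken as background, had a Zic1 UMI in 2 of 29 thinned cells, or 6.90% with an exact 95% interval of 0.846% to 22.8%. Their median depth was 1236 UMIs, against 2408 in differentiating and 2082.5 in progenitor-like cells.

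The same pattern appeared along the markers that named the differentiating class. Granule-lineage-like cells were binned by how many of their 1000 thinned UMIs fell on those 15 listed differentiating markers. The bins hold cells of both classes, but differentiating cells made up 2.21% of the lowest and 72.1% of the top bin. They are therefore no independent check of the class comparison. Zic1 averaged 3.62 ± 0.76, 4.17 ± 0.19, 4.74 ± 0.32, 5.37 ± 0.38 and 8.45 ± 1.14 UMIs per 10000 (SD, n = 4 mice) in cells with 0, 1 to 2, 3 to 4, 5 to 7 and 8 to 24 marker UMIs. The top bin exceeded all lower bins in each mouse. Zic4 averaged 2.09 ± 0.13, 1.51 ± 0.30, 1.81 ± 0.44, 1.55 ± 0.89 and 1.24 ± 0.40 over the same bins, with its top bin below its lowest bin in 4 of 4 mice. Zic5 averaged 1.03 ± 0.07, 1.21 ± 0.34, 1.67 ± 0.61, 1.68 ± 0.40 and 1.63 ± 0.44, with overlapping spreads above the lowest bin. No test was made on the bins.

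**Figure D2:**
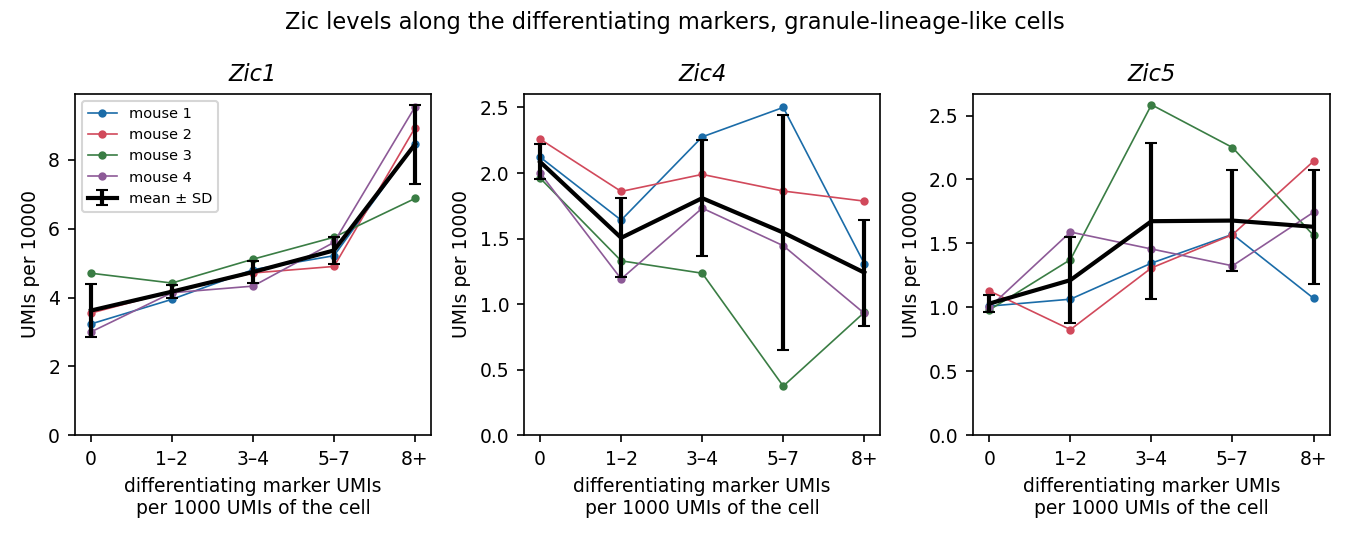
Zic UMIs per 10000 (vertical axis) in granule-lineage-like cells binned by differentiating marker UMIs per 1000 UMIs of the cell (horizontal axis, low to high); thin lines are mice, the black line is the mean with SD over 4 mice. Zic1 averaged 3.62 in the lowest and 8.45 in the highest bin, whereas Zic4 averaged 2.09 and 1.24.

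Genes around the Zic family moved with these classes. Of the 18 listed hedgehog pathway genes, 12 were tested: 2 rose and 6 fell in differentiating cells, with a median log2 fold change of -0.47 against -0.01 over all genes. Of all genes tested, 9.21% were called higher and 9.9% lower. Ptch1, the SHH receptor and a direct Gli target, fell by 1.16 ± 0.12 on the log2 scale. Of 20 listed granule lineage factors, 19 were tested, 14 rose and 1 fell, with a median of 0.56. Neurod1, a neuronal differentiation factor, rose by 1.99 ± 0.10, Sox11, a factor of immature neurons, by 0.89 ± 0.07, and Nhlh2, a neuronal basic helix-loop-helix factor, by 1.29 ± 0.12. The nuclear factor I genes Nfix and Nfib, which act in granule neuron maturation, rose by 0.74 ± 0.08 and 0.57 ± 0.06. Each of these 6 genes moved its way in all 4 mice, and edgeR's adjusted p-values ran from 7.8e-92 to 5.0e-17. Atoh1, the factor whose promoter drives the Cre, gave -0.04 ± 0.12 (adjusted p = 0.88, edgeR) and was not called. Some list genes were also markers that named the classes, so their changes are not independent of the naming. Nhlh1 and Nhlh2, which rose, are differentiating markers. Gli1 and Hhip, which fell, Barhl1, which rose, and Atoh1 are granule progenitor markers.

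In astroglia-like cells no Zic gene was called, where 3.75% of all genes tested were. Zic1 had 4.02, 2.74, 5.72 and 4.27 UMIs per 10000 in astroglia-like cells of mice 1 to 4, against 4.74, 5.06, 5.34 and 5.01 in granule-lineage-like cells, which are differentiating and progenitor-like cells together. The ranges overlapped. The log2 fold change was -0.24 ± 0.14, with an interval of -0.50 to 0.03 and an adjusted p of 0.49 by edgeR. Zic4 gave -0.02 ± 0.20 and Zic5 0.01 ± 0.22, with intervals of -0.41 to 0.37 and -0.42 to 0.43. The levels were 1.53 ± 0.64 and 1.24 ± 0.26 UMIs per 10000 for Zic4 and Zic5 in astroglia-like cells (SD, n = 4 mice).

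The astroglia-like class was uneven, and Zic1 was lower in its clusters with fewer granule progenitor marker UMIs. Zic1 stood at 4.88, 4.19 and 2.31 UMIs per 10000 in its clusters of 63, 58 and 57 cells. Their granule progenitor markers lay by a median of -0.03, -0.73 and -1.13 log2 units from the granule-lineage mean, in the same order. Zic4 stood at 1.91, 1.23 and 1.15 in the same clusters, while Zic5 stood at 1.77, 0.511 and 1.07, lowest in the second. With the third cluster alone, an alternative chosen after seeing the data, Zic1 fell by 1.29 ± 0.30 on the log2 scale (adjusted p = 0.0012, edgeR). Zic4 at -0.64 ± 0.43 and Zic5 at -0.53 ± 0.46 were not called there. That fit rested on 26 Zic1 UMIs, and its minimum was lowered to 4 cells per mouse, the number from mouse 3. Zic1 was also called lower, at -0.67 ± 0.18 (adjusted p = 0.024, edgeR), among cells with at least 1000 detected genes. The part of RNA from granule cells in the astroglia-like levels was not tested. Atoh1, a defining marker of granule precursors, gave -0.18 ± 0.20 in the same comparison, from 60 UMIs in astroglia-like cells.

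All 3 testable Zic genes fell in oligodendrocyte-lineage-like cells, of which 116 of 142 lay in a cluster led by Ptprz1, Cspg5 and Lhfpl3, genes of oligodendrocyte precursors. Zic1 had 1.75, 0.916, 3.25 and 1.46 UMIs per 10000 in those cells of mice 1 to 4, each below the lowest granule-lineage-like value of 4.74. It fell by 1.71 ± 0.24 on the log2 scale (adjusted p = 4.9e-11, edgeR) and in 4 of 4 mice. Zic4 fell by 2.24 ± 0.40 (adjusted p = 4.1e-07), from 10 UMIs, lower in 3 of 4 mice, while in mouse 3 4 UMIs gave 1.18 per 10000 against 1.14 in granule-lineage-like cells. Zic5 fell by 2.39 ± 0.43 (adjusted p = 6.6e-07), from 8 UMIs and in 4 of 4 mice. In this comparison 22.7% of all genes tested were called and 10.9% were called lower. Of the hedgehog list 6 of 11 tested genes fell and none rose, with a median of -1.54 against -0.12 over all genes. Of the granule lineage factors 14 of 18 fell and none rose, with a median of -1.32. One of the clusters in this class drew 23 of its 26 cells from mouse 4.

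Their pooled Zic1, Zic4 and Zic5 levels were 0.310 (counting interval 0.227 to 0.414), 0.206 (0.0987 to 0.379) and 0.20 (0.0862 to 0.393) of those in granule-lineage-like cells. Atoh1 fell by 1.99 ± 0.37 on the log2 scale there, and the 6 granule progenitor markers summed to 3.90 UMIs per 10000, against 12.0 in progenitor-like cells. The 15 listed differentiating markers went the other way, with sums over mice of 37.4 to 53.8 UMIs per 10000, against 29.5 to 34.7 in granule-lineage-like cells. That list holds Cntn1, which is also among the leading genes of the 116-cell cluster, so the sum does not measure granule RNA alone. Whether the remaining Zic UMIs come from these cells or from granule RNA was not tested. With each cell thinned to 1000 UMIs, 11.8% ± 6.25 of oligodendrocyte-lineage-like and 35.1% ± 1.43 of progenitor-like cells held a Zic1 UMI. For Zic4 the pooled share was 0.870% (1 of 115 cells), against 3.45% (1 of 29) in myeloid-like cells with an exact 95% interval of 0.0873% to 17.8%. For Zic5 it was 1.74% (2 of 115), against 0 of 29 myeloid-like cells, with an exact 95% interval of 0% to 11.9%. At this depth neither share could be told from that of myeloid-like cells. The same held for Zic1, with a pooled share of 11.3% (13 of 115, exact 95% interval 6.16% to 18.6%). In myeloid-like cells it was 6.90% (2 of 29, 0.846% to 22.8%).

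Myeloid-like cells held few Zic UMIs: 14 of Zic1, 2 of Zic4 and 1 of Zic5 in 39 cells, 5 to 14 per mouse. Their 66727 UMIs would have held 33.2, 10.9 and 8.99 at the granule-lineage level. The ratio of levels was 0.421 (counting interval 0.230 to 0.707) for Zic1, 0.184 (0.0222 to 0.663) for Zic4 and 0.111 (0.00282 to 0.620) for Zic5. A myeloid-like cell of mouse 4 held 9 of the 14 Zic1 UMIs. Without mouse 4 the Zic1 log2 fold change was -3.22, against -1.69 with all 4 mice. On simulated data this comparison recovered few of the changes put in and gave false calls more often than its threshold allows, so its calls are weak. By edgeR all 3 genes were called lower, where 13.8% of all genes were called and 9.85% called lower, with adjusted p-values of 0.0053, 0.037 and 0.025. The median of all genes in this comparison was itself -1.08, so the Zic1 change of -1.69 ± 0.47 was -0.61 relative to it. All 3 calls were lost without cells under 30 Malat1 UMIs per 10000, with adjusted p-values of 0.094, 0.069 and 0.16. The Zic1 call was also lost without mouse 1 or mouse 2 (adjusted p = 0.064 and 0.055), and those of Zic4 and Zic5 without any 1 of the 4 mice. The cluster also held neutrophil RNA such as S100a8.

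**Figure D3:**
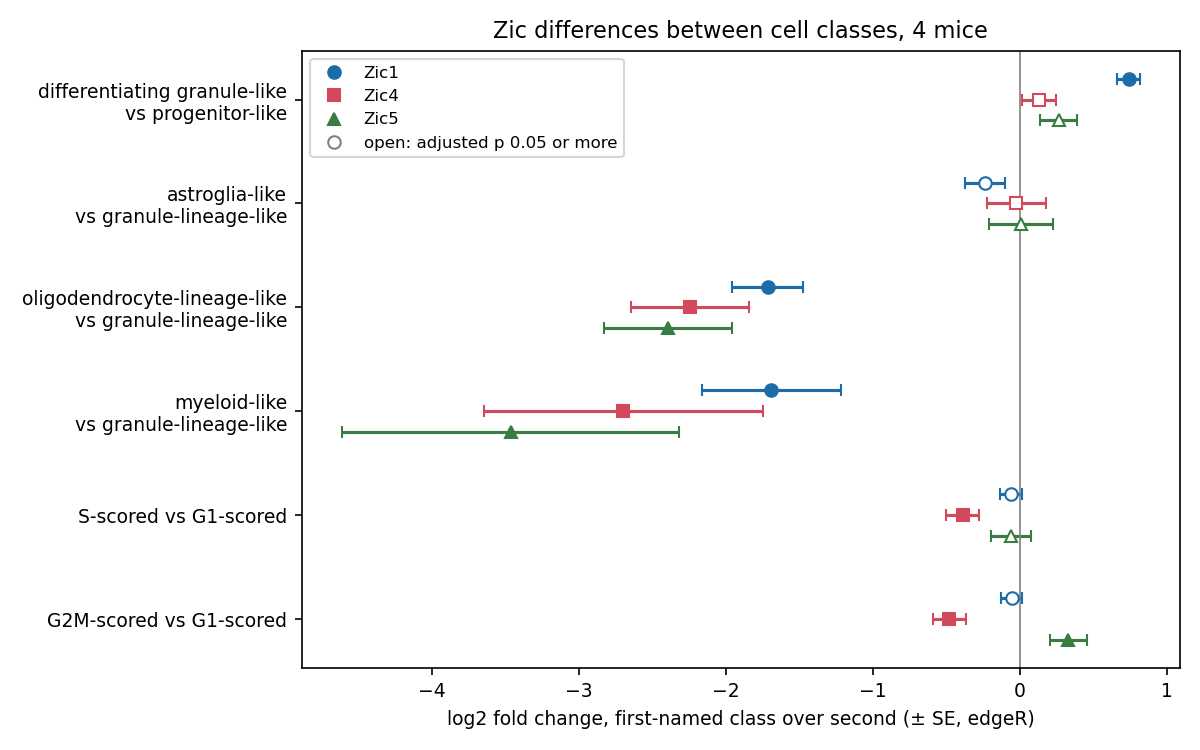
Log2 fold change (horizontal axis) of Zic1, Zic4 and Zic5 in each comparison, first-named class over second, with the standard error of the edgeR test; filled symbols have an adjusted p under 0.05. Zic1 stands at 0.74 in differentiating cells, all 3 genes lie at or below -1.69 in oligodendrocyte-lineage-like and myeloid-like cells, and the G2M-scored row holds Zic4 at -0.48 and Zic5 at 0.33.

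Among progenitor-like cells, Zic4 fell in S-scored and G2M-scored cells while Zic1 did not pass the test. Cells were split by scores of S phase and G2M phase genes, which are ranges and not cell types. Of 3208 cells, 441 lay within 0.05 score units of the cut that sets off G1-scored cells. Cells near the cut between S-scored and G2M-scored cells were not counted. In the shallow low-Malat1 cluster of 748 cells, 32.8% were S-scored and 54.3% G2M-scored. The scored genes were left out of the ranking of leading genes, but other cell cycle genes were not. Gng3, Atp5k and Lockd came first in this cluster, whereas Ccnb1, Plk1 and Aspm came first in a progenitor-like cluster of 305 cells. Whether a score alone marks a cycling cell was not tested. Without low-Malat1 cells Zic4 still fell in S-scored cells, by 0.35 ± 0.11 on the log2 scale (adjusted p = 0.016, edgeR). Zic4 had 1.87, 1.70, 1.09 and 1.31 UMIs per 10000 in S-scored and 1.64, 1.37, 1.16 and 1.36 in G2M-scored cells of mice 1 to 4, against 2.36, 2.08, 1.32 and 1.97 in G1-scored cells. The G1-scored value was the highest in each mouse, although the groups overlapped across mice. The log2 fold change was -0.39 ± 0.11 in S-scored cells (adjusted p = 0.0049) and -0.48 ± 0.11 in G2M-scored cells (adjusted p = 0.00021), each in 4 of 4 mice by edgeR. The call in S-scored cells was lost without mouse 4 (adjusted p = 0.060). In cells thinned to 1000 UMIs, the share with a Zic4 UMI differed from G1-scored cells by -4.34 ± 4.58 percentage points in S-scored cells. In G2M-scored cells it differed by -4.25 ± 3.81, each lower in 3 of 4 mice (p = 0.25, exact sign-flip permutation test). At 2000 UMIs these were -4.50 and -7.48, lower in 4 of 4 mice. For Zic1 the G2M-scored difference was -6.46 ± 3.06, lower in 4 of 4 mice, but 1.52 at 2000 UMIs. Of all genes tested, 16.7% were called in the S comparison and 7.07% called lower, while 23.5% were called in the G2M comparison and 10.9% called lower.

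Zic5 went the other way in G2M-scored cells. It had 1.26, 1.18, 2.14 and 1.59 UMIs per 10000 in G2M-scored cells, against 1.11, 1.13, 1.40 and 1.20 in G1-scored cells. It rose by 0.33 ± 0.12 on the log2 scale in 4 of 4 mice (adjusted p = 0.038, edgeR), where 12.6% of genes were called higher. This call was lost without mouse 1, 3 or 4, with adjusted p-values of 0.062, 0.19 and 0.15. In S-scored cells Zic5 gave -0.06 ± 0.14 (adjusted p = 0.83), with an interval of -0.33 to 0.21. Zic1 gave -0.06 ± 0.07 in S-scored and -0.06 ± 0.07 in G2M-scored cells, with intervals of -0.20 to 0.09 in both.

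The difference between Zic5 and Zic4 in G2M-scored cells had the same sign in every mouse. The log2 ratio of G2M-scored to G1-scored cells was larger for Zic5 than for Zic4 by 0.71, 0.66, 0.81 and 0.94 in mice 1 to 4, a mean of 0.78 ± 0.13 (SD). The exact sign-flip permutation p was 0.13, the smallest that 4 mice allow. Zic4 at -0.42 ± 0.11 and Zic5 at 0.36 ± 0.13 kept their calls without the low-Malat1 cells (adjusted p = 0.0033 and 0.031, edgeR). Both calls were lost in the fit without the mouse as a block, with adjusted p-values of 0.089 and 0.25, and so was the Zic4 call in S-scored cells, at 0.30. DESeq2's Wald test called none of these 3, with adjusted p-values of 0.10, 0.39 and 0.25. Atoh1 also fell, by 0.41 ± 0.11 in S-scored and 0.46 ± 0.11 in G2M-scored cells (adjusted p = 0.0021 and 0.00026, edgeR). Of 17 tested granule lineage factors, 6 fell and 0 rose in S-scored cells, and 7 fell and 4 rose in G2M-scored cells. Of the hedgehog genes, 3 of 11 rose and 1 fell in S-scored cells, and 2 of 12 rose and 2 fell in G2M-scored cells. Over all genes tested, 9.66% were called higher and 7.07% lower in S-scored cells, and 12.6% higher and 10.9% lower in G2M-scored cells.

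**Figure D4:**
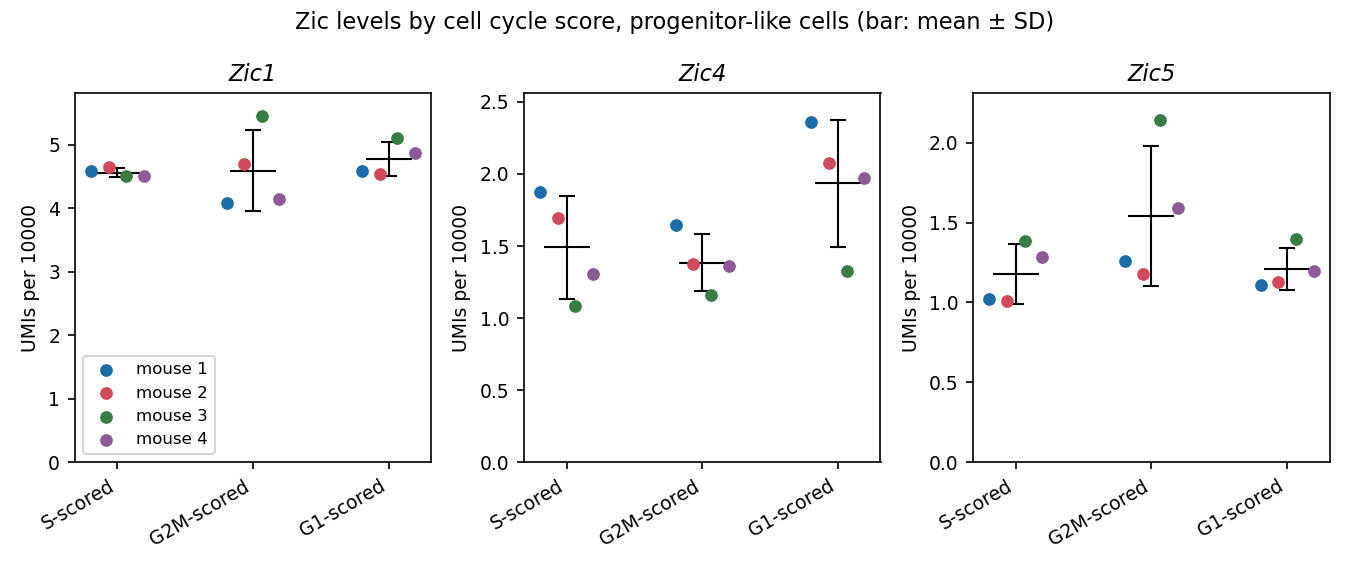
Zic UMIs per 10000 (vertical axis) in S-scored, G2M-scored and G1-scored progenitor-like cells, 1 point per mouse, with the mean and SD over 4 mice. Zic4 averaged 1.49, 1.38 and 1.93 in that order and Zic5 1.18, 1.54 and 1.21, while Zic1 stayed between 4.08 and 5.46.

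The mice themselves differed in the balance of Zic4 and Zic5. In progenitor-like cells mouse 1 had the most Zic4 (1.94) with 1.14 of Zic5, and mouse 3 the least Zic4 (1.17) with the most Zic5 (1.73). The library of mouse 1 was sequenced again to raise its saturation and that of mouse 3 held the fewest UMIs, and with 1 library per mouse, animal and library cannot be told apart. Progenitor-like cells with under 30 Malat1 UMIs per 10000 held less of each gene in the mean over mice. They had 0.771 ± 0.219 of Zic4 and 0.716 ± 0.156 of Zic5, against 1.66 ± 0.37 and 1.43 ± 0.29 in the other progenitor-like cells. Zic1 was at 3.75 ± 0.90 in the low-Malat1 cells and 4.77 ± 0.27 in the others. In mouse 3 it was not lower, at 5.09 against 5.07. Median depths were 1146 and 2412 UMIs per cell.

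Zic2 had few UMIs in every class. There were 10 UMIs in differentiating granule-like, 2 in astroglia-like, 0 in oligodendrocyte-lineage-like, 0 in myeloid-like and 50 in progenitor-like cells. Its level was 0.0723 ± 0.0749 in differentiating and 0.0621 ± 0.0139 UMIs per 10000 in progenitor-like cells (SD, n = 4 mice). The progenitor-like level had a counting interval of 0.0461 to 0.0818, above the 0.00372 that 3 counts would give. It did not pass the filter on low counts, so the main fits give it no test. At the granule-lineage level 1.90 UMIs would have fallen in the oligodendrocyte-lineage-like cells, fewer than the limit of 3 that a count of 0 allows, so a lower level was not detectable at this depth.

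Zic1 was detected about as often in cells with as in cells without a Zic4 or Zic5 UMI, and so was Zic4 by Zic5. Among progenitor-like cells thinned to 1000 UMIs, 37.5% ± 5.46 of cells with and 34.8% ± 1.46 of cells without a Zic4 UMI held Zic1 (SD, n = 4 mice). For Zic1 by Zic5 the shares were 36.5% ± 2.36 and 35.0% ± 1.90, and for Zic4 by Zic5 14.3% ± 7.55 and 14.2% ± 1.86. Over the 2712 cells, Pearson's r of the counts was 0.005 to 0.027, which in counts this sparse is no finding.

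Over 18 sums of a mouse and a class, Zic4 and Zic5 had the most similar profiles of any 2 members, with Pearson's r = 0.84 of log2(CPM + 10), against 0.56 for Zic1 with Zic4 and 0.62 for Zic1 with Zic5. The sums share libraries and 5 classes, so r is a description. Among 3343 genes, those most like Zic1 were Lhx1os (0.88), Basp1 (0.88), Pax6 (0.88) and Nrep (0.87). Those most like Zic4 were Eif5a (0.92), H1f0 (0.92), Cdk6 (0.91) and Sh3bgrl (0.91), and those most like Zic5 were Eif3e (0.95), Eif2s3x (0.94), Carhsp1 (0.91) and Snrnp40 (0.90). For Zic2, with its few UMIs, 2810004N23Rik (0.78), Ddit4 (0.70), Slbp (0.70) and Glod4 (0.70) came highest.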

How the data were processed

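Single-cell RNA-seq was done on tumours of 4 mice, 1 library each. The authors deposited raw UMI counts per gene symbol and cell barcode, with no normalization, per the file headers; Cell Ranger 2.0.2, Seurat and mm10 stand in the submitters' processing notes, while the annotation release is not given in the sources used here. Depth was 1679285 to 3801197 UMIs per library.

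Barcodes with at least 500 genes and at most 10% mitochondrial UMIs were kept (4137), and 36 doublets marked per library by Scrublet, 0.870%, were removed. Clustering used leidenalg 0.10.2 within scanpy 1.11.5 (2000 variable genes, 30 components, resolution 1), holding out Zic genes, the hedgehog and granule factor lists, cell cycle genes and mitochondrial and ribosomal genes. Clusters were named from marker lists. A rule added after seeing the data leaves a cluster unnamed when more markers of another class than of its own lead it; it changed no class. Names were rebuilt here, so they may differ from the study's.

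For each class, the UMI counts of a mouse's cells were added up, and edgeR 4.0.16 compared these sums (quasi-likelihood test, TMM, filterByExpr, mouse as a block, Benjamini-Hochberg over all genes, threshold 0.05), in R 4.3.3. The mouse pairs the classes because both come from the same animal and library; the correlation of same-mouse deviations was 0.0192 to 0.512. The fits were tested on simulated data with changes of 1 and 2 log2 units. Most changes of 2 units were recovered except in the myeloid-like comparison. Of changes of 1 unit, 38% were recovered for differentiating, 24% for astroglia-like and 17% for oligodendrocyte-lineage-like cells. The shares were 0% for myeloid-like, 54% for S-scored and 46% for G2M-scored cells. Smaller changes were not simulated. The share of false calls was above the threshold in the myeloid-like and G2M comparisons. DESeq2 1.42.0, other filters, clusterings, depths and left-out mice were tried as alternatives. Approximate intervals of fold changes come from the standard error; counting intervals are exact Poisson or Clopper-Pearson at 95% and cover counting error only. Members, lists and tests were chosen with earlier results of these data known. Named genes are the members, the 6 list genes with the smallest adjusted p between differentiating and progenitor-like cells, and the 4 genes most correlated with each member; Atoh1 is added as the driver of the Cre.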

Additional observations from a re-analysis of the deposited data

Results flagged for a closer look

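Zic5 in myeloid-like cells stood at 0.448 UMIs per 10000 in mouse 1 and at 0 in the other 3 mice, so that mouse lay far from the others. The value is 1 UMI in 14 cells. With 0 in the other 3 mice, any count in mouse 1 would be flagged, so the flag carries no further information.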

How the results depend on the processing

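Log2 fold changes by edgeR are given unless stated. Higher Zic1 in differentiating cells kept its direction and call in 16 of 16 alternatives, from 0.67 to 0.98 (adjusted p 1.0e-26 to 0.00014). Lower Zic1, Zic4 and Zic5 in oligodendrocyte-lineage-like cells did so in 15 of 15, with the smallest changes, -0.86, -0.88 and -0.83, at the higher clustering resolution. Where a value changed, the cause was not tested. Zic4 between differentiating and progenitor-like cells was -0.083 with at least 1000 genes per cell, -0.21 with at most 5% mitochondrial UMIs and -0.089 to 0.26 with 1 mouse left out. Zic5 there was called at 0.52 and 0.40 at the lower and higher clustering resolutions and at 0.45 with the cell cycle regressed, and was -0.048 in cells thinned to 1000 UMIs. In astroglia-like cells Zic1 was called at -0.67 with at least 1000 genes and at -1.29 in 1 cluster, an alternative added after seeing the data. At the lower and higher resolutions Zic1 was -0.50 and -0.62 and Zic4 -0.57 and -0.64, not called. Zic4 there was 0.033 with no replicate block and -0.31 to 0.14 with 1 mouse left out. Zic5, not called in any alternative, was -0.016 by DESeq2, -0.15 with no filter on low counts, -0.037 with no replicate block, -0.17 and -0.87 at the lower and higher resolutions, -0.37 with the cell cycle regressed, -0.22 with at least 1000 genes, -0.28 with at most 5% mitochondrial UMIs, -0.33 thinned, -0.53 in that 1 cluster and -0.21 to 0.070 with 1 mouse left out.

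In myeloid-like cells Zic1 lost its call by DESeq2 (-1.92), without low-Malat1 cells (-1.39) and without mouse 1 or 2, with a range of -3.22 to -1.35 over left-out mice. Zic4 lost it with DESeq2's size factors (-2.43), by DESeq2 (-2.34), thinned (-9.05), without low-Malat1 cells (-3.45) and without any 1 mouse (-3.40 to -2.16). Zic5 did so under the same settings, at -3.19, -2.82, -8.99, -3.04 and -10.33 to -2.84. Myeloid-like cells with at least 1000 genes formed no cluster, so that alternative was not run. In S-scored cells Zic4 lost its call by DESeq2 (-0.40), with no replicate block (-0.40), with at least 1000 genes (-0.26), thinned (-0.45) and without mouse 4 (range over left-out mice -0.43 to -0.34), and Zic5 was 0.0049 at the lower resolution. In G2M-scored cells Zic4 lost its call by DESeq2 (-0.45), with no replicate block (-0.48) and thinned (-0.41). Zic5 did so by DESeq2 (0.35), with no replicate block (0.38), with the cell cycle regressed (0.27), with at most 5% mitochondrial UMIs (0.27), thinned (0.28) and without mouse 1, 3 or 4 (0.26 to 0.40). Zic1 there was 0.0073 with no filter on low counts. The fit with no replicate block changed no other call of a Zic gene.

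For shares of cells with a Zic1 UMI, oligodendrocyte-lineage-like minus progenitor-like cells, the difference of -23.3 percentage points was -35.1 thinned to 2000 UMIs and -39.5 unthinned. G2M-scored minus G1-scored cells gave -6.46 points for Zic1, 1.52 at 2000 UMIs and -1.92 unthinned, and 2.22 points for Zic5, 6.40 unthinned. Calls over all genes ranged over the alternatives from 624 to 1540 (main 1473) for differentiating, 84 to 319 (259) for astroglia-like, 436 to 2070 (1669) for oligodendrocyte-lineage-like, 368 to 1646 (871) for myeloid-like, 332 to 1116 (1017) for S-scored and 586 to 1679 (1572) for G2M-scored cells. Depth limits Zic2, which had too few UMIs for a test, and Zic4 and Zic5 in oligodendrocyte-lineage-like and myeloid-like cells.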

Other observations

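The 5 choroid plexus or ependymal-like cells came from mice 1 and 4 and held 3 UMIs of Zic1, 2 of Zic5, 0 of Zic4 and 0 of Zic2. Among progenitor-like clusters, Zic5 was highest at 1.96 UMIs per 10000 in the 305 cells led by the mitotic genes Ccnb1 and Plk1, against 1.48 in the 445 cells led by histone genes. Zic4 stood at 1.68 and 1.31 in the same clusters. Another cluster drew 378 of its 497 cells from mouse 1 and another 304 of its 456 from mouse 3, with Zic4 at 2.21 and 1.51 and Zic5 at 1.03 and 1.55. These are values of clusters and were not tested.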
